A study of Mus musculus with 8 samples.

Results

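The collagen chain genes encode the alpha chains from which all collagens are built, and they were taken here as every row of the count table whose symbol has the form Col, a type number, the letter a and a chain number. This rule found 44 of the 55421 genes in the table. All 44 were annotated as protein coding, and they lay on 15 chromosomes. By the assembly that their chains form, 11 are fibrillar (types I, II, III, V, XI, XXIV and XXVII), 6 belong to basement membrane (type IV) and 27 to other kinds. The latter comprise the beaded filaments of type VI, the networks and anchoring fibrils of types VII, VIII and X, the fibril-associated collagens, the transmembrane collagens, the multiplexins (types XV and XVIII) and types XXVI and XXVIII. Counts were high enough for a test in 42 members. The other two were Col9a1, with 1 to 4 counts per library, and Col4a3, with 2 to 10 counts per library.

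The libraries came from primary spermatogonia (SSC culture) of the strain background C57BL/6XDBA/2, established from testes of pups 6 days old after adherent somatic cells had been discarded. They were grown on mitotically arrested mouse embryonic fibroblasts from outbred CF1 mice as feeder cells, in medium with GDNF and bFGF, for which the labels give 10 ng/ml each and the study's methods another level of GDNF. Cultures with the genotype label Stra8KO or Spo11KO were treated for 2 days either with vehicle (Veh) or with NRRA, in which a balanced salt solution replaces most of the medium and retinoic acid is added. The growth factors are thus diluted in NRRA as well. The design gives 4 groups with 2 libraries each. Poly(A) RNA of collected cells was sequenced, and the study's methods do not say whether feeder cells were removed first. The libraries can thus hold feeder and germ cell RNA together. Wild-type cultures were not used. The knockouts are those of the cultured germ cells, while the feeder cells were bought from another source. A genotype difference in a gene of the feeder layer therefore cannot be told apart from a difference in feeder share, or from one between separately grown cultures.

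Collagen is secreted as trimers of alpha chains, each with long Gly-X-Y repeats. Chains are hydroxylated and glycosylated in the endoplasmic reticulum, folded with the chaperone HSP47, trimmed of their propeptides outside the cell and cross-linked by lysyl oxidases. Fibroblasts are the classical source of the interstitial collagens I, III, V and VI. In the testis, type IV collagen and laminin form the basement membrane on which spermatogonia rest, and ascorbic acid, which the culture medium contained, is the cofactor of the collagen hydroxylases.

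Library totals ran from 20960794 to 27038868 counts. Stra8 had 0 to 170 counts in the 4 libraries labelled Stra8KO, against 12604 and 16191 in those labelled Spo11KO after NRRA. Spo11 itself had 72 to 148 counts in libraries labelled Spo11KO and 31 to 68 in Stra8KO, so gene counts do not check that label. The 16 fibroblast markers, a list without collagens, held 2.07% ± 0.00977 (SD, n = 2) of the counts in Stra8KO Veh and 1.10% ± 0.0132 (SD, n = 2) in Veh libraries labelled Spo11KO. In both media all 16 were called higher in Stra8KO (all tested genes 31.6% in Veh and 35% in NRRA). Their medians were 1.03 and 1.00 (log2). Of the 10 germ cell markers, 10 were called lower in Stra8KO in Veh and 9 after NRRA (all tested genes 30.7% and 28.9%). Their median was -0.98 (log2) in each. Of 9 Sertoli genes, Fshr and Rhox8, and of 6 Leydig genes, Insl3 and Lhcgr, had at most 3 counts in every library. Others of these lists were present, with group means of 10.3 to 37.9 CPM for Sox9, 3.83 to 12.01 CPM for Wt1 and 5.35 to 6.599 CPM for Star. The Sertoli list summed to 17.9 to 50.05 CPM, the Leydig list to 5.83 to 8.63 CPM and the macrophage list to 23.6 to 40.8 CPM, which sets the counts of a gene against the total of its library after TMM scaling. The endothelial list summed to 9.03 to 18.4 CPM, the keratinocyte list to 7.54 to 35.7 CPM, the cartilage list to 7.87 to 26.9 CPM and the bone list to 24.3 to 43.1 CPM. In bulk libraries of this kind, fewer cells of a type and less RNA per cell cannot be told apart.

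Promoter windows are given for chains on which the results turn: the chains of type I and type III that rose with NRRA, a type IV chain, and a pair of type VI partner chains that moved in opposite directions. The sequences are from RefSeq (GRCm38.p6), cover 250 bases before to 50 bases after the annotated start and are written 5′ to 3′ on the strand of the gene. Col1a2 lies at chr6:4505368-4505667 (plus strand), Col3a1 at chr1:45311288-45311587 (plus strand), Col4a1 at chr8:11312777-11313076 (minus strand), Col6a1 at chr10:76725995-76726294 (minus strand) and Col6a3 at chr1:90843922-90844221 (minus strand). Capitals mark matches on either strand to the CCAAT box, the TATA box in the form TATAAA, the GC box in the form GGGCGG, the AP-1 site in the form TGANTCA or the nuclear receptor half-site in the form AGGTCA.
Col1a2: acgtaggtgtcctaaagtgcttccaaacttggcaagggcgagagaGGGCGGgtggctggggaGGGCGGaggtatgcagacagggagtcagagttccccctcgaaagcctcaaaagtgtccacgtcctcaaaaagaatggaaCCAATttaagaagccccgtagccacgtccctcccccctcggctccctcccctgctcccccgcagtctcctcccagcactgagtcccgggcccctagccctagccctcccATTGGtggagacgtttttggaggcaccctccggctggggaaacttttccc
Col3a1: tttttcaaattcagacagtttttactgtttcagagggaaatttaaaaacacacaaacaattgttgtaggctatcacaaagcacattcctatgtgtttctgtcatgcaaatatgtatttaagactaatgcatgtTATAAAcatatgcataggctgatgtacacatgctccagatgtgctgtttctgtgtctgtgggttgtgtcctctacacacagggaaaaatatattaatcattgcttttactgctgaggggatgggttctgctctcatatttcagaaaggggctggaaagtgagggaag
Col4a1: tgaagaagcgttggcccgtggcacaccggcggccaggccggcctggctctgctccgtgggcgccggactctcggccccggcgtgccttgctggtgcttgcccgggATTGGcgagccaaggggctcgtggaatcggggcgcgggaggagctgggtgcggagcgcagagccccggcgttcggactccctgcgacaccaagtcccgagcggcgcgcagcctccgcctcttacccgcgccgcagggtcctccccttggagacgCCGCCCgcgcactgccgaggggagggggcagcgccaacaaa
Col6a1: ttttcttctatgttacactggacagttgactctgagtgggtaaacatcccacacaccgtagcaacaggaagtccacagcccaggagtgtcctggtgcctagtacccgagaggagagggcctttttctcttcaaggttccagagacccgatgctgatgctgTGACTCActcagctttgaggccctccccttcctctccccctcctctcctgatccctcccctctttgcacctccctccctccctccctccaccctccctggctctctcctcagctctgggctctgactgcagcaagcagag
Col6a3: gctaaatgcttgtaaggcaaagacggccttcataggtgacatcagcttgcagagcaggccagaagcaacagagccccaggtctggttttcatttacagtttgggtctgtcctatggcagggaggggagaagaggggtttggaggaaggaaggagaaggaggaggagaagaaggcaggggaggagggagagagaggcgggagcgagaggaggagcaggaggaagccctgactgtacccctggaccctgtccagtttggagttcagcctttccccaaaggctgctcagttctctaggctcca

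None of the matches in these 5 windows overlapped another. Col1a2 held 2 matches to CCAAT and 2 to GGGCGG, Col4a1 1 of each, Col3a1 1 to TATAAA and Col6a1 1 to TGANTCA, while Col6a3 held no match to any of them. Of the 44 members, 35 had an entry in the table, with 38 windows. Col1a1, Col2a1, Col4a3, Col5a2, Col9a3, Col12a1, Col14a1, Col22a1 and Col26a1 were not matched. GGGCGG was present in 60.5% of the collagen windows, against 35.7% of all 32851 windows in the table. The shares for the others were 34.2% against 37.4% for CCAAT, 13.2% against 13.6% for TATAAA, 2.63% against 7.81% for TGANTCA and 21.1% against 16.3% for AGGTCA. Windows of chains that rose with NRRA in both genotypes held AGGTCA in 1 of 16 cases, and those of chains that fell in both held it in 2 of 8. In the same order, the counts were 12 of 16 and 4 of 8 for GGGCGG and 6 of 16 and 3 of 8 for CCAAT. They were 2 of 16 and 1 of 8 for TATAAA and 1 of 16 and 0 of 8 for TGANTCA. These matches describe letters in a window and are not shown to be sites.

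Collagen transcripts made up 1.67% ± 0.0463 (SD, n = 2) of all counts in Stra8KO Veh, 3.54% ± 0.0371 (SD, n = 2) in Stra8KO NRRA, 1.01% ± 0.0294 (SD, n = 2) in Veh libraries labelled Spo11KO and 2.13% ± 0.0906 (SD, n = 2) in NRRA libraries labelled Spo11KO. The share was therefore 2.12-fold and 2.11-fold higher with NRRA, in that order, and no libraries of Veh and NRRA overlapped. Fibrillar chains carried most of this. Their share went from 1.05% to 2.72% in Stra8KO and from 0.642% to 1.62% in cultures with the Spo11KO label, 2.60-fold and 2.53-fold. Basement membrane chains went from 0.199% to 0.257% and from 0.0974% to 0.145%, and the other chains from 0.423% to 0.565% and from 0.269% to 0.362%. Without Col1a1, Col1a2 and Col3a1, the share of all remaining chains was 1.43-fold higher with NRRA in each genotype.

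The share of the fibroblast markers was lower with NRRA. It was 2.07% in Veh and 1.69% in NRRA in Stra8KO, and 1.10% and 0.969% in cultures with the Spo11KO label. Fn1 and Fbln2, at 10530 and 4730 CPM, made up most of the 21890 and 21940 CPM of this list in Stra8KO Veh. With NRRA, Fn1 fell by 0.42 and 0.38 and Fbln2 by 0.18 and 0.24 on the log2 scale. Of the 16 markers, 4 were called higher in Stra8KO and 5 in cultures with the Spo11KO label (all genes 21.6% and 24.5%). In the same order, 10 and 11 were called lower (all genes 20.2% and 25.5%). Per fibroblast marker count, collagen counts stood at 0.805 ± 0.0186 (SD, n = 2) in Stra8KO Veh and 2.09 ± 0.0305 (SD, n = 2) in Stra8KO NRRA. The ratios in cultures with the Spo11KO label were 0.922 ± 0.0379 (SD, n = 2) and 2.20 ± 0.0974 (SD, n = 2). Between the genotypes the same ratio was lower in Stra8KO, at 0.873-fold in Veh and 0.950-fold in NRRA, without overlap of libraries in either medium. By class, the fold in Veh was 0.860 for fibrillar, 1.08 for basement membrane and 0.829 for other chains. With 2 libraries against 2, a two-sided exact permutation test of these shares cannot go below 0.333, and none was run.

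**Figure D1:**
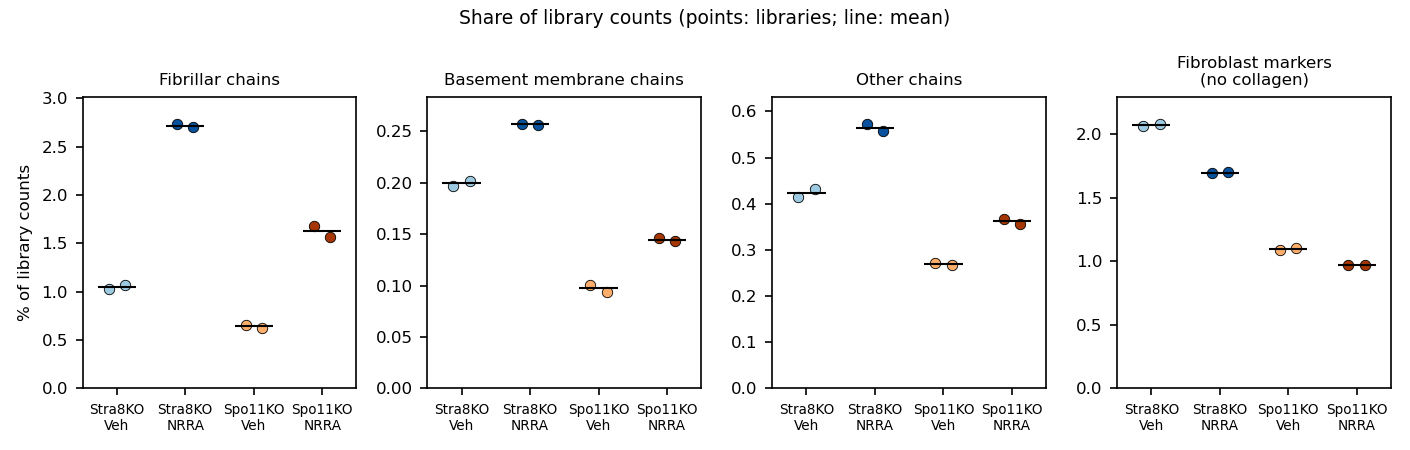
Share of all counts in a library (%) taken by fibrillar, basement membrane and other collagen chains and by 16 fibroblast markers without collagens. Points are libraries, 2 per group, and lines are means. Fibrillar chains are the panel with the widest step between Veh and NRRA, from 1.05% to 2.72% in Stra8KO, while the fibroblast markers step down from 2.07% to 1.69%.

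Levels of different genes are compared per kilobase of exon (RPKM). On that scale Col1a1, the alpha1 chain of type I collagen, ranked first in all 4 groups, at 631.5 ± 10.4 (SD, n = 2) in Stra8KO Veh and 352.7 ± 13.3 (SD, n = 2) in Veh libraries labelled Spo11KO. Col1a2, Col3a1, Col4a1 and Col5a1 followed in Stra8KO Veh, at 231.8, 170, 155.2 and 155.1 RPKM, where the last pair did not differ beyond their spread. At the low end, 18 of 44 members stayed under 1 RPKM in that group. The lowest of the tested members there was Col19a1 at 0.0719 RPKM. The order of genes depends on the length used, since Col1a2 has 12426 bases in the union of its exons and 5348 in its longest transcript. In NRRA libraries labelled Spo11KO, Col3a1 at 312.5 and Col1a2 at 309.7 RPKM stood in the other order, without a difference beyond their spread.

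**Figure D2:**
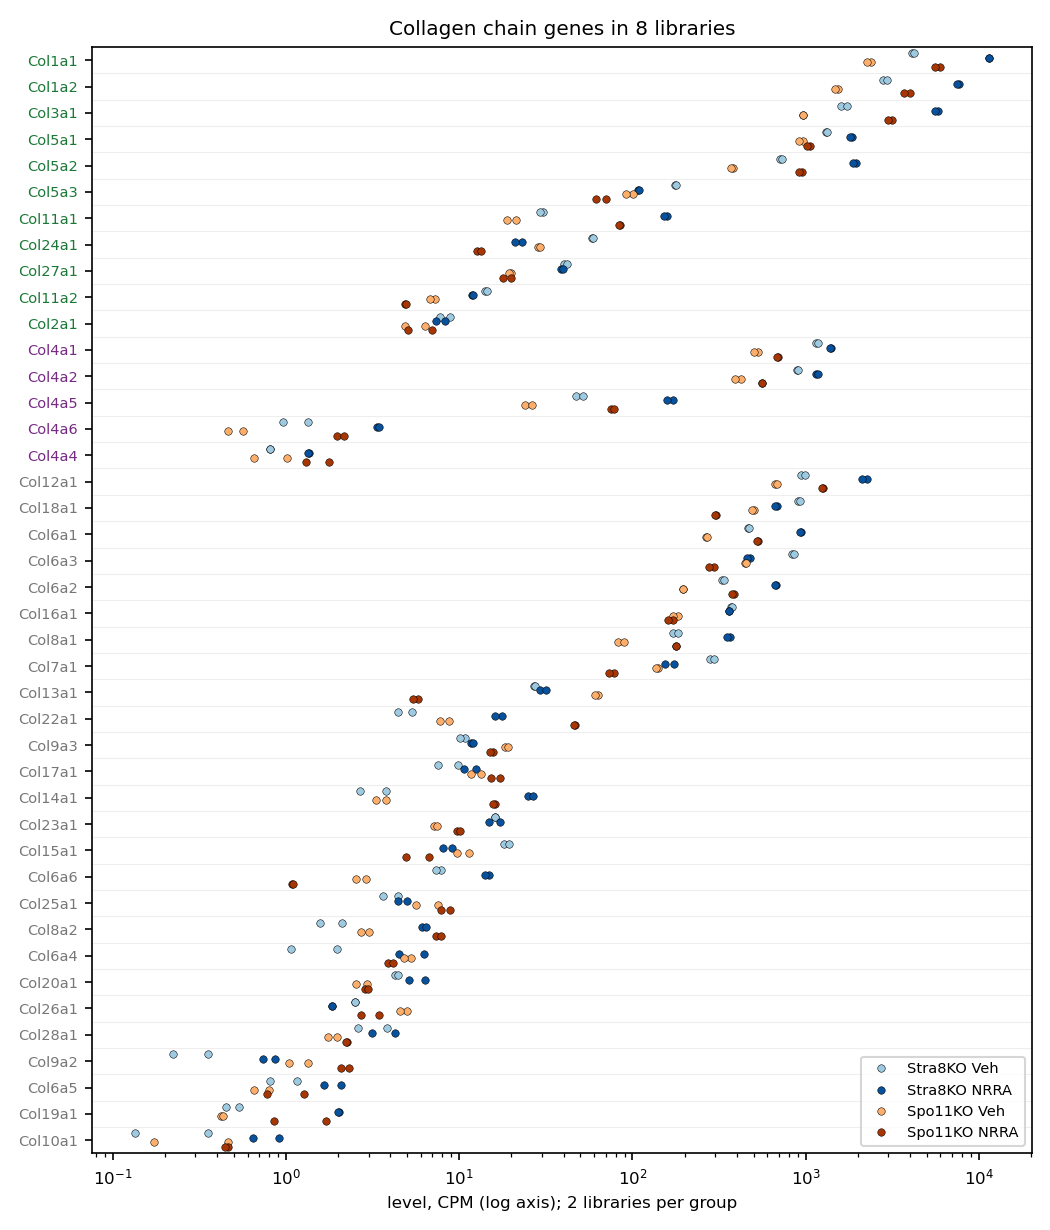
Level of the 42 tested collagen chain genes in each of the 8 libraries, in CPM on a log axis, not per length. Gene names are green for fibrillar, purple for basement membrane and grey for other chains, and each group has 2 points per gene. Col1a1 spans 2253 to 11480 CPM, and the points of a group spread most in the genes of lowest level, such as Col10a1 (0.134 and 0.353 CPM in Stra8KO Veh).

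The first question was how NRRA changed each chain. In Stra8KO, edgeR's quasi-likelihood test at an adjusted p under 0.05 called 24 of the 42 tested members higher and 7 lower, where 21.6% of all 20588 tested genes were called higher and 20.2% lower. The median log2 fold change of the members was 0.60, beside 0.01 over all tested genes. At least 2-fold changes were seen in 18 members upwards and 2 downwards (all genes 6.97% and 3.57%). In the cultures labelled Spo11KO, 23 members were called higher and 12 lower (all genes 24.5% and 25.5%), with a median of 0.42 beside 0.01. Of these, 12 were at least 2-fold higher and 3 at least 2-fold lower (all genes 6.81% and 5.52%). The comparisons in the 2 genotypes share no library. A total of 20 members were called higher in both and 7 lower in both, which together is 87.1% of the members called in Stra8KO and 77.1% of those called in cultures with the Spo11KO label. Over all tested genes, 64.6% of the calls in Stra8KO and 54.1% of those in cultures with the Spo11KO label were shared in this way. As a share of tested genes, this is 64.3% of the members and 27% of all genes. Col6a6 was called in opposite directions, and Col2a1, Col20a1, Col27a1 and Col28a1 were called in neither.

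**Figure D3:**
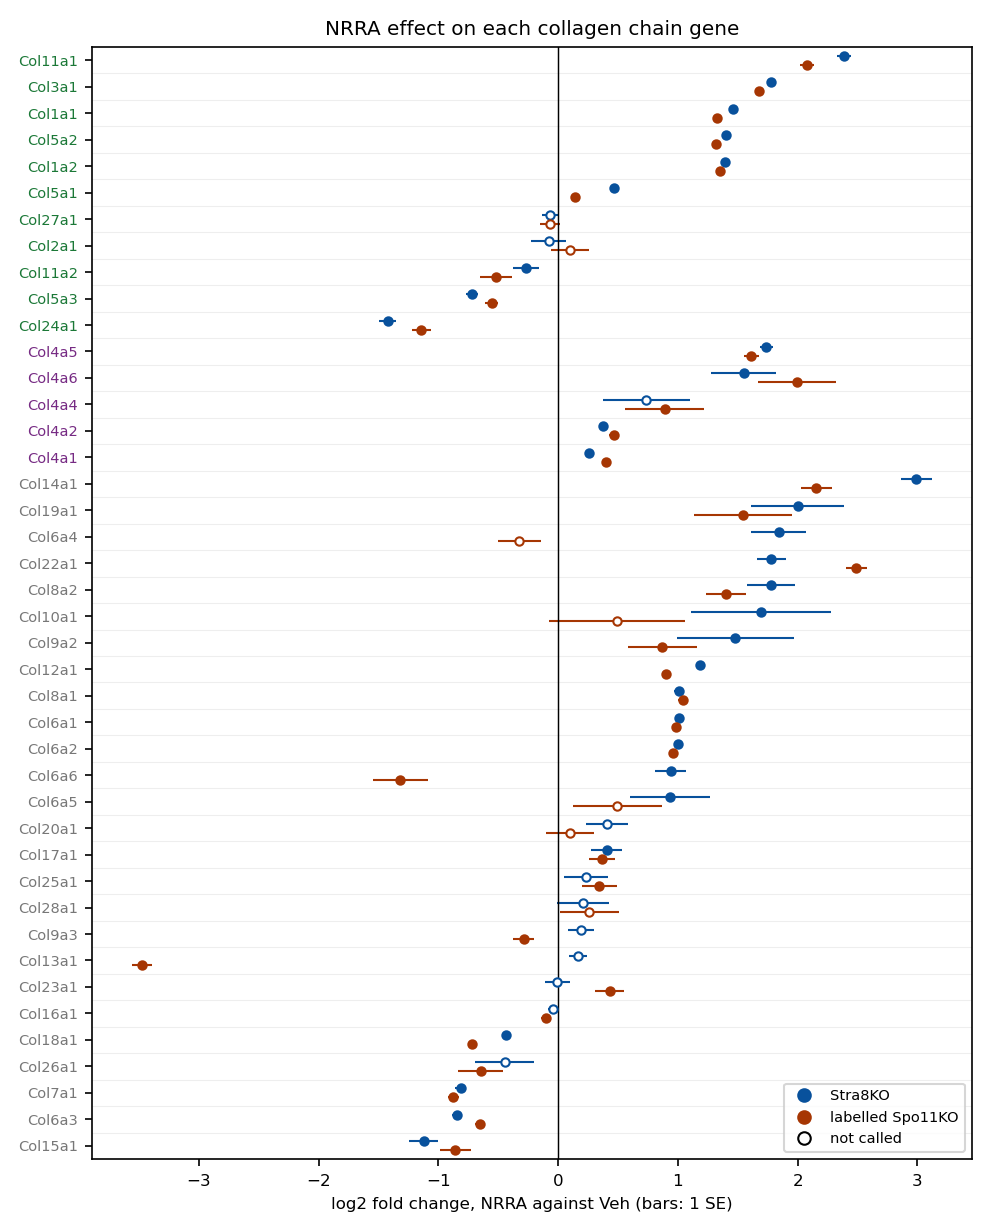
Log2 fold change of NRRA against Veh for the 42 tested members, with bars of 1 standard error. Blue is Stra8KO, brown is the cultures labelled Spo11KO, and open symbols were not called. Names are green for fibrillar, purple for basement membrane and grey for other chains. Both symbols of a gene usually lie on the same side of 0, and Col13a1 (0.16 and -3.47) and Col6a6 (0.94 and -1.32) are the widest exceptions.

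Type I collagen is a trimer of alpha1 and alpha2 chains and the main tensile fibril of connective tissue. Col1a1 (ENSMUSG00000001506, chr11:94936224-94953042, plus strand) measured 4096 and 4193 CPM in Stra8KO Veh, 11380 and 11480 after NRRA, 2376 and 2253 in Veh and 5973 and 5610 in NRRA libraries labelled Spo11KO. Each NRRA pair lay far above its Veh pair, and each Stra8KO pair above the pair labelled Spo11KO in the same medium. The rise was 1.46 (log2, SE 0.0328, edgeR adjusted p 2.56e-37) in Stra8KO and 1.32 (log2, SE 0.0328, edgeR adjusted p 1.98e-35) in cultures with the Spo11KO label.

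Col1a2 (ENSMUSG00000029661, chr6:4504814-4541544, plus strand) had 2810 and 2950 CPM in Stra8KO Veh and 7671 and 7449 in NRRA, against 1538 and 1476, then 3981 and 3715, in libraries labelled Spo11KO. It thus followed its partner without overlap between media, by 1.39 and 1.35 (log2, SE 0.0343 and 0.0344). Col3a1 (ENSMUSG00000026043, chr1:45311538-45349706, plus strand), whose homotrimers form fine fibrils together with type I, had 1605 and 1732 CPM in Stra8KO Veh and 5835 and 5600 in NRRA. In Spo11KO-labelled libraries it had 960.5 and 960.3 CPM in Veh and 3143 and 2992 in NRRA. Its rises of 1.78 and 1.68 (log2, SE 0.0353 and 0.0354) were the largest among the 5 most abundant chains.

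Types V and XI are minor fibrillar collagens that nucleate type I and type II fibrils. Here their chains parted. Col5a2 rose by 1.40 and 1.32 (log2, SE 0.0352 and 0.0357) and Col11a1 by 2.39 and 2.08 (log2, SE 0.0573 and 0.0615), in Stra8KO and the cultures labelled Spo11KO. Col11a1 (chr3:114030540-114220718) had 30.3 and 29.1 CPM in Stra8KO Veh and 159.3 and 151.6 in NRRA, and 18.8 and 21.2, then 85.0 and 83.7, in libraries labelled Spo11KO, with no overlap between media. Col5a1, at 1303 and 1331 CPM in Stra8KO Veh, reached only 1848 and 1795 with NRRA. In the libraries labelled Spo11KO it went from 968.2 and 919.7 to 1066 and 1015 CPM, and its pairs stood close together. These are rises of 0.47 and 0.14 (log2, SE 0.0347 and 0.0348), and the latter lost its call without Veh replicate 2 labelled Spo11KO (0.09, edgeR adjusted p 0.0667). Col5a3 fell, by 0.72 and 0.56 on the log2 scale. The largest fibrillar fall was that of Col24a1, which had 58.6 and 59.2 CPM in Stra8KO Veh and 23.1 and 20.9 in NRRA, and 28.7 and 29.1, then 12.7 and 13.4, in libraries labelled Spo11KO. It fell by 1.42 and 1.14 on the log2 scale. Col11a2 fell as well, by 0.27 and 0.52, where the former was not called when any single Stra8KO library was left out. Col2a1, the cartilage chain, at 4.87 to 8.81 CPM, changed by -0.08 and 0.10 (log2), and Col27a1 by -0.07 in each genotype (0.02 with total counts in cultures with the Spo11KO label), none of them called. In all, 6 of the 11 fibrillar members were called higher and 3 lower, in each genotype. Among all tested genes, 21.6% were called higher and 20.2% lower in Stra8KO, and 24.5% and 25.5% in cultures with the Spo11KO label. The count of fibrillar falls is close to these shares.

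All 5 tested chains of basement membrane collagen were called higher with NRRA or were not called. Col4a1 (chr8:11198423-11312826, minus strand) and Col4a2 (chr8:11312805-11449287, plus strand), whose products join in the commonest type IV trimer, are transcribed in opposite directions and overlap by 22 bases at their starts. Col4a1 had 1141 and 1177 CPM in Stra8KO Veh and 1400 and 1376 in NRRA. In Spo11KO-labelled libraries it had 533.2 and 505.5 CPM in Veh and 691.4 and 681.7 in NRRA. The steps were small but clear of the spread, at 0.26 and 0.40 (log2, SE 0.0346 and 0.0351), and Col4a2 rose by 0.37 and 0.46 (log2, SE 0.0354 and 0.0361).

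The chains Col4a5 and Col4a6, neighbours on the X chromosome that start 1308 bases apart, rose more. Col4a5 had 47.5 and 51.8 CPM in Stra8KO Veh, 171.8 and 158.9 in NRRA, 23.8 and 26.4 in Veh and 75.6 and 77.9 in NRRA libraries labelled Spo11KO. NRRA libraries lay well above Veh libraries in each genotype, with rises of 1.74 and 1.61 (log2, SE 0.0546 and 0.0614). Col4a6 was expressed at 0.463 to 3.46 CPM and rose by 1.55 and 1.99 (log2, SE 0.270 and 0.325). Col4a4, at 0.653 to 1.77 CPM, was called in cultures with the Spo11KO label alone (0.89, SE 0.330, and 0.74, SE 0.361, in Stra8KO, where the edgeR adjusted p was 0.0991), and the call was lost without replicate 2 of either medium. Basement membrane members called were thus 4 of 5 higher in Stra8KO and 5 of 5 in cultures with the Spo11KO label (all genes 21.6% and 24.5%). None was lower in either, also at an unadjusted p under 0.05. As 20.2% and 25.5% of all genes were called lower, the absence of falls among 5 members says little.

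Type VI collagen forms beaded filaments from an alpha1 chain, an alpha2 chain and a large partner chain, usually alpha3. Col6a1 had 463.0 and 469.4 CPM in Stra8KO Veh and 944.0 and 929.5 in NRRA, and 264.4 and 269.6, then 530.3 and 526.2, in libraries labelled Spo11KO. Its levels rose without overlap, by 1.01 and 0.98 (log2, SE 0.0352 and 0.0358), and Col6a2 rose by 1.00 and 0.96 (log2, SE 0.0362 and 0.0370). Col6a3 (chr1:90765923-90843971, minus strand) went the other way. It had 830.6 and 859.9 CPM in Stra8KO Veh and 479.4 and 461.0 in NRRA, and 449.0 and 452.3, then 295.2 and 278.1, in libraries labelled Spo11KO. It fell by 0.85 and 0.65 on the log2 scale (SE 0.0369 and 0.0374, edgeR adjusted p 2.97e-25 and 1.48e-20). Of the promoter windows, that of Col6a1 held a TGANTCA match and that of Col6a3 none of the letters searched. The windows of Col6a2, which rose like Col6a1, held no TGANTCA match. A link between these matches and the changes was not tested.

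The ratio of partner chains shows the same split in each library. Per kilobase of exon, the ratio of Col6a3 to Col6a1 was 0.657 and 0.671 in Stra8KO Veh and 0.186 and 0.182 in NRRA. It was 0.622 and 0.614 in Veh and 0.204 and 0.194 in NRRA libraries labelled Spo11KO, so that the media lay far apart and the genotypes close together. Col5a1 to Col5a2 went from 2.06 ± 0.00601 (SD, n = 2) to 1.08 ± 0.00325 (SD, n = 2) in Stra8KO and from 2.84 ± 0.0315 (SD, n = 2) to 1.25 ± 0.0105 (SD, n = 2) in cultures with the Spo11KO label. In contrast, Col1a1 to Col1a2 stayed between 2.69 and 2.93, Col4a1 to Col4a2 between 1.04 and 1.16, and Col6a1 to Col6a2 between 2.56 and 2.68 in all 8 libraries. Absolute ratios depend on the length used, and with the longest transcript in place of the union of exons the mean of Col1a1 to Col1a2 was 1.35 in place of 2.84. The steps between media do not depend on it.

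**Figure D4:**
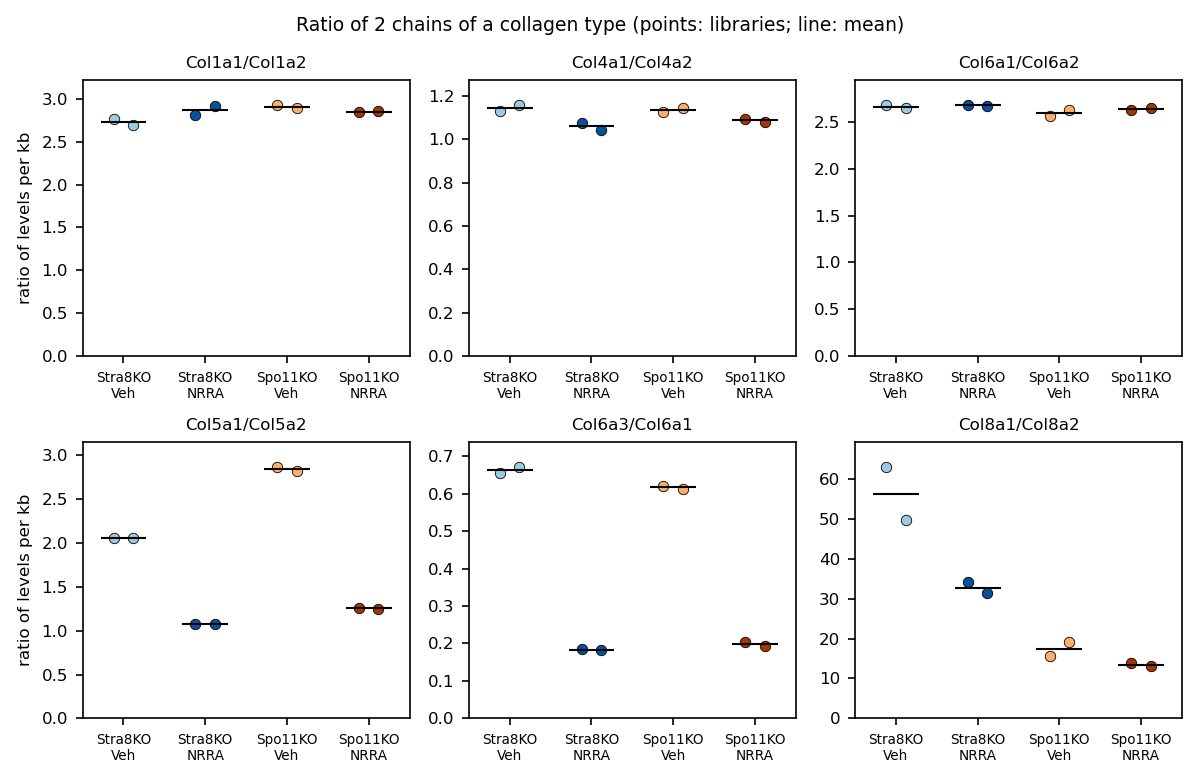
Ratio of partner chains, each level divided by its exon length in kilobases. Points are libraries, 2 per group, and lines are means. The upper panels stay within 2.69 to 2.93, 1.04 to 1.16 and 2.56 to 2.68, whereas Col5a1 to Col5a2 and Col6a3 to Col6a1 drop with NRRA in both genotypes.

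Among the networks, Col8a1, a short chain of hexagonal lattices, rose by 1.01 and 1.04 (log2, SE 0.0418 and 0.0444), and its partner Col8a2 by 1.78 and 1.40 (log2, SE 0.198 and 0.166) from a far lower level. The ratio of the former to the latter went from 56.3 to 32.8 in Stra8KO and from 17.4 to 13.5 in cultures with the Spo11KO label. Col7a1, the anchoring fibril of the skin, fell from 280.5 and 295.7 CPM to 154.7 and 172.7 in Stra8KO and from 141.2 and 136.5 to 78.1 and 73.4 in libraries labelled Spo11KO. Its falls of 0.81 and 0.88 on the log2 scale were of like size. Col10a1, a chain of growth plate cartilage, had 3 to 19 counts per library, lies across Nt5dc1 on the opposite strand and was called in Stra8KO alone (1.69, SE 0.583), a call that did not hold without replicate 1 of either medium.

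Fibril-associated collagens sit on the surface of fibrils. Col14a1 rose most of all members in Stra8KO. It had 3.76 and 2.67 CPM in Stra8KO Veh and 25.1 and 26.5 in NRRA, and 3.79 and 3.31, then 16.1 and 15.6, in libraries labelled Spo11KO. Levels were alike in Veh and parted in NRRA, with rises of 2.99 and 2.16 (log2, SE 0.131 and 0.130). Col12a1, at 936.1 and 987.6 CPM in Stra8KO Veh the most abundant of this kind, rose to 2264 and 2107 CPM, by 1.18 (log2, SE 0.0360), and by 0.90 (log2, SE 0.0360) in cultures with the Spo11KO label. Col22a1, known from tissue junctions, had 5.32 and 4.43 CPM in Stra8KO Veh, 17.6 and 16.2 in NRRA, 8.72 and 7.70 in Veh and 46.5 and 45.9 in NRRA libraries labelled Spo11KO. Here the libraries labelled Spo11KO were the higher ones, and the rise was 1.78 and 2.49 (log2, SE 0.119 and 0.0902). Col19a1 (2.00 and 1.54) and Col9a2 (1.48 and 0.87) were also called higher in both, at no more than 2.32 CPM. Col16a1, at 161 to 377 CPM, changed by -0.05 in Stra8KO and -0.10 in cultures with the Spo11KO label, and the latter was called by TMM (edgeR adjusted p 0.0320) and not with total counts (-0.01, edgeR adjusted p 0.85). Col9a3, which overlaps the more abundant Tcfl5 on the opposite strand, changed by 0.19 and -0.29 (log2), the latter called. Reads of such overlaps cannot be told apart if the counting ignored strand, which is not given in the sources used here.

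Both multiplexins fell. Col18a1, the source of endostatin and a component of basement membranes, had 897.9 and 923.4 CPM in Stra8KO Veh and 678.7 and 667.1 in NRRA, and 503.2 and 487.8, then 303.1 and 298.1, in libraries labelled Spo11KO. Its falls were 0.44 and 0.72 on the log2 scale, and Col15a1 fell by 1.12 and 0.86. Among the transmembrane collagens, Col17a1, of hemidesmosomes, was called higher in both (0.40 and 0.37), and Col23a1 and Col25a1 in cultures with the Spo11KO label alone (0.43 and 0.34, against -0.01 and 0.23). Of the remaining members, Col26a1 fell by 0.64 on the log2 scale in cultures with the Spo11KO label and changed by -0.45 in Stra8KO without a call. Col20a1 changed by 0.41 and 0.10, Col28a1 by 0.21 and 0.26, and Col6a5 by 0.93 and 0.50 (log2), where only the 0.93 was called.

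Several of the calls named above did not hold when a single library was left out, which leaves 1 library in a group. Among them are weakly expressed chains, but also the abundant Col5a1 and Col16a1. These 2 changed by only 0.14 and -0.10 (log2) in cultures with the Spo11KO label. In fits that each omitted 1 library, 5 of 31 called members lost their call at least once in Stra8KO (Col6a5, Col9a2, Col10a1, Col11a2 and Col17a1). In the cultures labelled Spo11KO these were 8 of 35 (Col4a4, Col5a1, Col9a2, Col16a1, Col17a1, Col19a1, Col25a1 and Col26a1).

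The second question was whether the NRRA effect depended on the genotype, which the interaction tests. It was called for 14 members, with the more positive NRRA effect in Stra8KO for 10 and in cultures with the Spo11KO label for 4 (all genes 14.8% and 10.3%), with a median of 0.07 over the members and 0.01 over all genes. In 3 members, Col13a1, Col6a6 and Col6a4, there was an interaction of at least 2-fold upwards and none downwards (all genes 3.91% and 1.8%).

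Col13a1 (ENSMUSG00000058806, chr10:61838236-61979108, minus strand), a transmembrane collagen of adhesion sites, had 27.1 and 27.5 CPM in Stra8KO Veh and 29.4 and 31.8 in NRRA. In Spo11KO-labelled libraries it had 63.1 and 60.8 CPM in Veh and 5.75 and 5.43 in NRRA. The highest and the lowest group thus both carried the Spo11KO label, and no groups overlapped. The changes were 0.16 (log2, SE 0.0747, edgeR adjusted p 0.0751) in Stra8KO and -3.47 (log2, SE 0.0847, edgeR adjusted p 9.94e-36) in cultures with the Spo11KO label, and the interaction was 3.63 (log2, SE 0.116, edgeR adjusted p 9.07e-30). Against the other genotype, Col13a1 in Stra8KO differed by -1.18 (log2) in Veh and by 2.45 (log2) in NRRA, where the germ cell markers had a median of -0.98 and the fibroblast markers of 1.03 and 1.00. Of the 10 germ cell markers, the interaction was called upwards in 3 and downwards in 2, with a median of 0.06. The largest was that of Nanos3, at 3.10 (log2, SE 0.197). Nanos3 changed by 0.66 (log2) in Stra8KO and by -2.44 (log2) in cultures with the Spo11KO label. The part of these cells in the values of Col13a1 was not tested.

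The 3 neighbouring type VI genes on chromosome 9, which encode alternatives to alpha3, did not move alike. Col6a6 (chr9:105687809-105828160) had 7.83 and 7.30 CPM in Stra8KO Veh and 14.9 and 14.1 in NRRA, and 2.91 and 2.52, then 1.08 and 1.09, in libraries labelled Spo11KO. It rose by 0.94 (log2, SE 0.131) in Stra8KO and fell by 1.32 on the log2 scale (SE 0.231) in the other cultures, and the interaction was 2.26 (SE 0.265, edgeR adjusted p 1.66e-09). Col6a4 (chr9:105989454-106096783) had 1.07 and 1.96 CPM in Stra8KO Veh, 4.49 and 6.23 in NRRA, 5.26 and 4.79 in Veh and 3.86 and 4.16 in NRRA libraries labelled Spo11KO. Stra8KO Veh was the lowest group by far, and the NRRA libraries labelled Spo11KO lay below the Stra8KO NRRA libraries. It rose by 1.84 (log2, SE 0.231) in Stra8KO and changed by -0.32 (log2, SE 0.182, edgeR adjusted p 0.139) elsewhere, with an interaction of 2.16 (SE 0.297, edgeR adjusted p 7.5e-08). Col6a5, between them, stayed at 0.653 to 2.08 CPM and had no called interaction (0.44, SE 0.507).

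**Figure D5:**
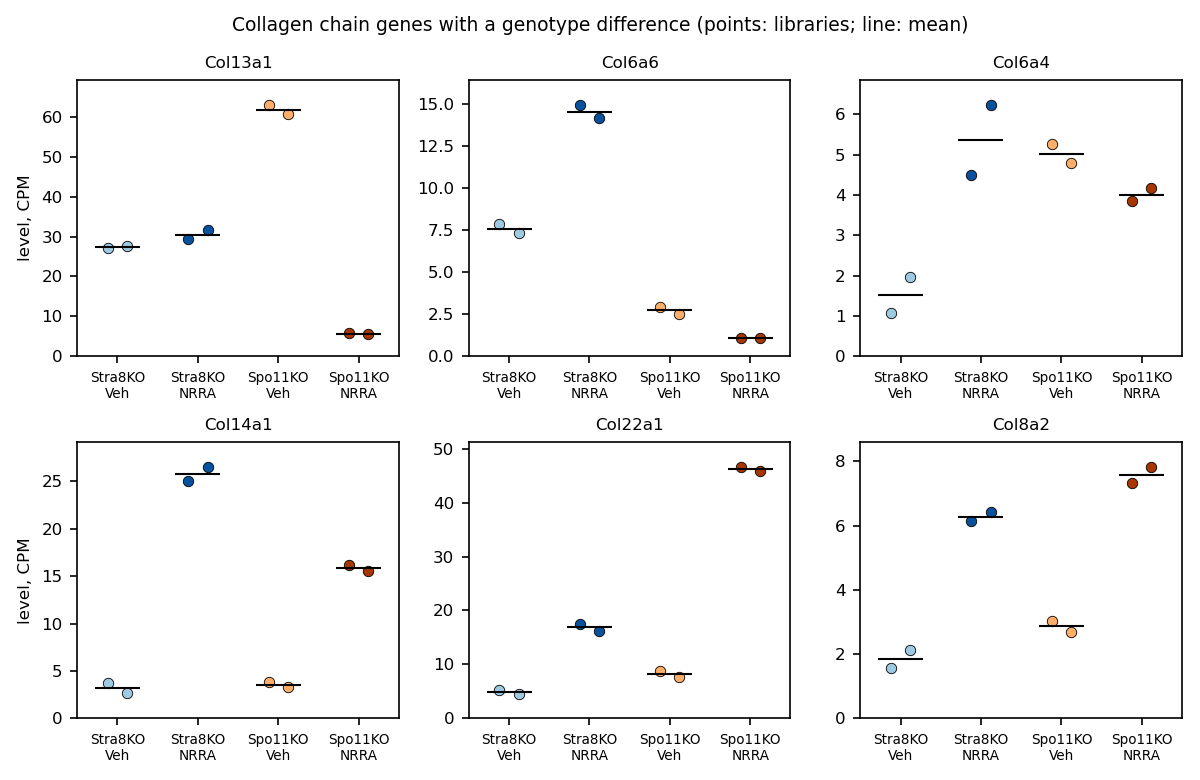
Level in CPM of 6 collagen chain genes in each library, 2 points per group with the mean as a line. Col13a1 stays within 27.1 to 31.8 CPM in Stra8KO, while with NRRA it is at 5.43 and 5.75 CPM in libraries labelled Spo11KO, and Col22a1 and Col8a2 are highest in NRRA libraries labelled Spo11KO.

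The other called interactions were smaller. They were upwards, which means a more positive change with NRRA in Stra8KO and not a higher level, for Col14a1 (0.83, SE 0.205), Col9a3 (0.48, SE 0.142), Col5a1 (0.33, SE 0.0491), Col11a1 (0.31, SE 0.0871), Col18a1 (0.28, SE 0.0501), Col12a1 (0.28, SE 0.0505) and Col1a1 (0.14, SE 0.0456). They were downwards for Col22a1 (-0.71, SE 0.160), Col23a1 (-0.44, SE 0.157), Col6a3 (-0.19, SE 0.0524) and Col4a1 (-0.14, SE 0.0493). The interactions of Col1a1, Col4a1, Col6a3, Col9a3, Col11a1 and Col23a1 lost their call in at least 1 fit without a single library, and that of Col1a1 was not called with DESeq2 size factors (0.11, edgeR adjusted p 0.0851) or total counts (0.05, edgeR adjusted p 0.50). No interaction was called for Col1a2 (0.04, SE 0.0477), Col3a1 (0.10, SE 0.0487), Col5a2 (0.08, SE 0.0494), Col6a1 (0.02, SE 0.0499) or Col6a2 (0.04, SE 0.0515), and the signs of those of Col1a2, Col5a2, Col6a1 and Col6a2 turned with total counts.

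The last comparisons set the genotypes against each other within a medium. In Veh, 28 members were called higher in Stra8KO and 9 lower (all genes 31.6% and 30.7%), with a median of 0.79 beside 0.00 over all genes. In NRRA, 32 were called higher and 6 lower (all genes 35% and 28.9%), with a median of 0.80 beside 0.07. At least 2-fold differences were 11 upwards and 3 downwards in Veh (all genes 9.3% and 6.9%), and 12 and 2 in NRRA (all genes 11% and 7.56%). All 11 fibrillar members were called higher in Stra8KO in each medium, as were 4 of 5 basement membrane members. In NRRA, the calls of Col2a1 (0.38) and Col4a6 (0.72) were lost with total counts (0.18 and 0.51) and with DESeq2's Wald test (0.36 and 0.70). Col1a1 was higher by 0.84 (log2, SE 0.0325) in Veh and 0.98 (log2, SE 0.0324) in NRRA, Col3a1 by 0.80 and 0.90, Col4a1 by 1.16 and 1.01 and Col5a1 by 0.48 and 0.81. Where only members whose average log2 CPM reached 1 are ranked, the largest differences upwards in Veh were those of Col6a6 (1.48), Col4a1 and Col4a2 (1.14), and in NRRA those of Col6a6 (3.73), Col13a1 (2.45) and Col11a2 (1.28). These differences came with the fibroblast markers, whose medians were 1.03 and 1.00, and their part in the result was not tested. Summed over all chains, the collagen share was 1.65-fold and 1.66-fold higher in Stra8KO, beside 1.89-fold and 1.75-fold for the fibroblast markers.

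Some chains ran against that direction. In Veh, Col6a4 (-1.75), Col8a2 (-0.65), Col9a2 (-2.05), Col9a3 (-0.85), Col13a1 (-1.18), Col17a1 (-0.53), Col22a1 (-0.75), Col25a1 (-0.71) and Col26a1 (-0.92) were called lower in Stra8KO. Of these 9, Col9a2 (-1.45), Col9a3 (-0.37), Col17a1 (-0.49), Col22a1 (-1.46), Col25a1 (-0.82) and Col26a1 (-0.73) were also called lower in NRRA, while Col13a1 and Col6a4 were called higher there. The call of Col6a4 in NRRA, at 0.42, was not firm. It was lost with DESeq2 size factors (0.40), total counts (0.21), all genes of at least 1 count (0.37), DESeq2's Wald test (0.40) and only the 4 libraries (0.35). Without Stra8KO NRRA replicate 2 the value was 0.16. Col13a1 was the most abundant of the 9, at no more than 63.1 CPM in any library. Of the 10 germ cell markers, 10 were also called lower in Stra8KO in Veh and 9 in NRRA (all genes 30.7% and 28.9%). Their median was -0.98 (log2) in each medium, and their part in the values of these chains was not tested. The calls of Col28a1, Col2a1, Col4a6 and Col8a2 in Veh, and of Col26a1, Col28a1, Col2a1, Col6a4 and Col6a5 in NRRA, were lost in at least 1 fit that left out a library.

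Genes that process and bind collagen were followed from lists of pathway members, whose counts are to be read against the 21.6% higher and 20.2% lower of all tested genes in Stra8KO, and 24.5% and 25.5% in cultures with the Spo11KO label. Several of the counts are close to these shares. Of 15 genes for hydroxylation and glycosylation of the chains, 7 were called higher and 2 lower with NRRA in Stra8KO, and 6 and 4 in cultures with the Spo11KO label. The prolyl 4-hydroxylase subunit P4ha3 rose by 1.29 and 1.25 (log2) and the prolyl 3-hydroxylase P3h2 by 1.24 and 1.17. Folding and export genes were called higher in 6 of 10 and lower in 2 in Stra8KO, and higher in 9 and lower in 0 in cultures with the Spo11KO label. There, 9 of 10 had an unadjusted p under 0.05. The transcription factor Creb3l1, which acts on secretory genes, rose by 1.76 and 1.46, and Sparc, a collagen-binding glycoprotein, by 0.72 and 0.76. Serpinh1, which encodes HSP47, rose by 0.71 and 0.57, and was picked after its values were seen because it binds every procollagen.

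Of 13 genes for propeptide removal and cross-linking, 9 were called higher and 4 lower in Stra8KO (all genes 21.6% and 20.2%). In cultures with the Spo11KO label these were 7 and 4 (all genes 24.5% and 25.5%). Lox, the lysyl oxidase, rose by 1.91 and 1.71 (log2), while Pcolce2, an enhancer of propeptide removal, fell by 1.97 and 1.48 and the protease gene Tll2 by 1.43 and 1.86 on the log2 scale. Of the collagen receptors, 8 of 10 were tested, 4 were called higher and 3 lower in each genotype, and Gp6 had at most 3 counts in every library. The integrin chain genes Itga11 and Itga2, both for receptors of collagens, moved apart. Itga11 rose by 2.72 and 2.25 (log2), from 19.1 to 125.7 CPM in Stra8KO, and Itga2 fell by 2.75 and 2.58 on the log2 scale, from 58.9 to 8.72 CPM.

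Other basement membrane genes, 14 of them tested, were called higher in 10 and lower in 1 in Stra8KO (all genes 21.6% and 20.2%). They were called higher in 6 and lower in 5 in cultures with the Spo11KO label (all genes 24.5% and 25.5%). Nid2 (nidogen 2) changed by 1.03 and -0.51 (log2) and Lama1 by 1.02 and -0.07, the last not called. Lama2 rose by 0.48 and 0.85. The germ cell markers were called higher in 8 of 10 and lower in 0 with NRRA in Stra8KO, where 9 had an unadjusted p under 0.05. In the cultures labelled Spo11KO they were called higher in 7 and lower in 1. The fibroblast markers were called higher in 4 and lower in 10 of 16, and higher in 5 and lower in 11, with medians of -0.18 and -0.26 (log2). Among them, Fap rose by 3.75 and 3.33 and Vim fell by 0.82 and 0.77 on the log2 scale, so that the list did not move as a block.

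In another marker list, 4 genes were called in the direction of most fibrillar chains. The 6 genes of smooth muscle or peritubular myoid cells summed to 160.5 and 169.5 CPM in Stra8KO Veh and 1088 and 1130 in NRRA, and to 97.5 and 100.7, then 540.9 and 565.2, in libraries labelled Spo11KO. In each genotype 4 of the 6 were called higher and 1 lower with NRRA, with Acta2, the smooth muscle actin that activated fibroblasts also express, at 4.24 and 4.06 (log2). Over all tested genes, 21.6% were called higher and 20.2% lower in Stra8KO, and 24.5% and 25.5% in cultures with the Spo11KO label. Acta2 and Tagln made up most of the sum, with 823.4 and 225.6 CPM in Stra8KO NRRA, while Smtn fell by 0.43 and 0.23 on the log2 scale and Des was not called. Of the other lists, the tested genes called higher and lower in Stra8KO were 1 and 1 of 4 for Sertoli cells, 0 and 1 of 6 for macrophages, 3 and 1 of 6 for endothelium, 0 and 1 of 3 for keratinocytes, 1 and 1 of 4 for cartilage and 1 and 1 of 4 for bone. In the cultures labelled Spo11KO they were 0 and 1, 1 and 2, 1 and 1, 0 and 1, 2 and 0 and 1 and 1, in the same order. Of the 3 tested Leydig genes none was called in either genotype, and 1 and 0 had an unadjusted p under 0.05. The part of these cells in the collagen changes was not tested.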

How the data were processed

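RNA captured on oligo dT was sequenced from 8 libraries. The authors deposited raw counts of reads per Ensembl gene, not normalized and with replicates kept apart. Per the submitters' processing notes, the tools were bcl2fastq, STAR 2.6.1c and featureCounts 1.6.4 on mm10. The annotation release, strand setting of the counting and handling of reads that match several places are not given in the sources used here, so chains that overlap other genes are uncertain. Groups followed the labels. The numbers of same-numbered libraries did not pair them (correlations of deviations -0.0271 to 0.0558), so no block was used.

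From the deposited counts, genes were kept by filterByExpr (20588 of 55421), scaled by TMM and fitted with edgeR 4.0.16 in R 4.3.3 as 1 group-means model over all 8 libraries. Each contrast had a two-sided quasi-likelihood F test, p-values were adjusted over all tested genes (Benjamini-Hochberg), and an adjusted p under 0.05 made a call. Library totals of 20960794 to 27038868 counts set the precision. Libraries of a group differed by more than sampling noise (mean chi-square per gene 1.86 to 4.12, where sampling noise alone gives 1) and were treated as separate samples. This measure cannot tell separate cultures from repeated preparations of the same culture. The study calls its replicates independent and biological, without saying whether cultures were derived separately, so p-values measure the spread between these libraries. CPM values use TMM-scaled totals, RPKM values divide them by the union of exons in GENCODE M21 (GRCm38), and shares use plain totals. The study's methods name DESeq2, run as an alternative with DESeq2 1.42.0. Others were size factors, total counts, other filters, only 4 libraries, a replicate block, stricter thresholds and leaving out each library. The fit was tested on simulated data.

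The members, gene lists and comparisons were chosen with earlier results of these data known. Named with values are all chains of types I, III, IV, V and VI, the 3 largest called rises and falls per contrast (average log2 CPM of at least 1, groups not overlapping), and the 2 largest called genes per pathway list, of which 1 is not reported here. Further members were named to account for all 44.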

Additional observations from a re-analysis of the deposited data

Results flagged for a closer look

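The edgeR test of the interaction was called for 14 of the 42 tested collagen chains, 10 upwards and 4 downwards (all genes 14.8% and 10.3%). Differences are on the log2 scale, the effect in Stra8KO minus that in the cultures labelled Spo11KO. The differences were 3.63 for Col13a1, 2.26 for Col6a6, 2.16 for Col6a4, 0.83 for Col14a1, 0.48 for Col9a3, 0.33 for Col5a1, 0.31 for Col11a1, 0.28 for Col18a1, 0.28 for Col12a1 and 0.14 for Col1a1, and -0.71 for Col22a1, -0.44 for Col23a1, -0.19 for Col6a3 and -0.14 for Col4a1. Directions that involve the libraries labelled Spo11KO rest on a label that gene counts did not check. Groups of 2 libraries are too small for a search for outlying samples.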

How the results depend on the processing

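Counts of members called in each direction stayed within 1.5 times under every scaling, filter, tool and left-out library tried, except for interactions downwards, 4 in the main analysis. These were 7 with total counts, 7 with all genes of at least 1 count, 2 at an adjusted p under 0.01, and 1 to 5 when single libraries were left out (1 without Stra8KO Veh replicate 2). Requiring 2-fold changes left 2 lower with NRRA in Stra8KO, 12 higher and 3 lower in cultures with the Spo11KO label, 11 higher and 3 lower between genotypes in Veh, 12 higher and 2 lower in NRRA, and 3 interactions upwards and 0 downwards. Total counts moved the median of all genes to 0.10 (log2) for NRRA in cultures with the Spo11KO label and to -0.11 and -0.14 (log2) between genotypes in Veh and NRRA, and changes under total counts are relative to it. DESeq2's Wald test lost 16 of the single-gene calls followed.

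The NRRA fold of the collagen share was 1.43 in each genotype without the 3 most abundant chains, and 1.98 in cultures with the Spo11KO label with TMM-scaled totals, which gave 1.79 and 1.92 between genotypes in Veh and NRRA. Relative to fibroblast markers without Fn1, the folds were 2.40 in Stra8KO and 2.23 in cultures with the Spo11KO label. With the longest transcript as length, mean ratios were 1.35 for Col1a1 to Col1a2, 1.22 for Col4a1 to Col4a2 and 1.67 for Col6a1 to Col6a2.

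Signs turned only in values that were not called. Interactions turned for Col1a2 (-0.0545 with total counts, -0.0229 with at least 1 count), Col5a2 (-0.0125, total counts), Col6a1 (-0.00947 with DESeq2 size factors and with its Wald test, -0.0715 with total counts, -0.0402 with at least 1 count) and Col6a2 (-0.0520, total counts, and -0.0208, at least 1 count). The NRRA effect turned for Col23a1 in Stra8KO (9.30e-05, average of at least 10 counts) and for Col27a1 in cultures with the Spo11KO label (0.0230, total counts). Leaving out single libraries gave ranges across 0 for the NRRA effect of Col23a1 (-0.12 to 0.10), Col28a1 (-0.0557 to 0.51) and Col2a1 (-0.17 to 0.00889) in Stra8KO, and of Col10a1 (-0.0445 to 1.35) and Col2a1 (-0.15 to 0.30) in cultures with the Spo11KO label. Between genotypes in Veh they were -1.225 to 0.44 for Col10a1, -0.41 to 0.0801 for Col14a1 and -0.32 to 0.30 for Col4a4, in NRRA -0.40 to 0.040 for Col4a4, and for the interaction -0.00465 to 0.0862 for Col1a2 and -0.51 to 0.12 for Col4a4. The cause of these changes was not tested.

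Same-numbered libraries shared only a number (correlations of deviations -0.0271 to 0.0558). With the replicate block, Col11a2 lost its call with NRRA in Stra8KO (-0.27, edgeR adjusted p 0.0510), which left 6 members lower there, and the block changed no other call of those followed. A left-out library leaves a group with 1 sample, assumed to vary like the others.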
